A study of Rattus norvegicus with 24 samples.

Results

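Rat hepatocytes kept on a single layer of collagen gel, here called the monolayer culture, were compared between day 3 and day 2, with 3 arrays at each day. These 6 arrays belong to a series of 24, in which the same kind of cells was also kept between 2 gel layers, here called the sandwich culture, and both cultures were sampled at days 1, 2, 3 and 8 (3 arrays in each of 8 groups). Days are counted from the laying of the second gel. All wells received the same serum-containing medium with epidermal growth factor, insulin, glucagon and hydrocortisone. The labels describe the monolayer as confluent and unstable and use it as the negative control of the study, with the sandwich as the positive one. They do not say whether the 3 arrays of a group came from separate animals or separate wells, so the p-values measure the spread between these arrays, which may be technical. Of 14217 genes read on the arrays, 1032 were called in this step at an adjusted p under 0.05 (limma, Benjamini-Hochberg over 31042 probe sets, two-sided). They were sorted by what they had done between day 1 and day 2: genes that first moved in this step, genes that continued, and genes that turned back.

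Hepatocytes in the liver are polarized epithelial cells that secrete plasma proteins, detoxify drugs, make bile and handle nitrogen, sugar and fat. When they are plated on a flat substrate they flatten, build actin stress fibres and gradually lose these functions, a process usually called dedifferentiation. A second gel layer, which restores matrix contact on the upper side, is known to slow that loss. The genes that mark the process include actins and actin-binding proteins, the intermediate filament vimentin, matrix and matrix-remodelling proteins, and on the losing side cytochromes P450, bile acid carriers and apolipoproteins.

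The 6 arrays were close to each other. Pearson correlations across probe sets, which are not independent replicates, were 0.9928 to 0.9962 between arrays of the same day and 0.9895 to 0.9936 between day 3 and day 2. The 3′ minus 5′ difference of the GAPDH control probe sets, which grows as RNA breaks down, was 0.4, 0.25 and 0.34 at day 3 and 0.26, 0.24 and 0.2 at day 2 on the log2 scale. For beta-actin it was 0.8, 0.8 and 0.83 at day 3 and 0.75, 0.81 and 0.81 at day 2. Exact two-sided permutation tests gave p = 0.2 and p = 0.6 (adjusted over 4 measures, 0.8 for both), and 3 arrays against 3 cannot go below 0.1. The hepatocyte label was borne by the markers: albumin stood at no more than 15.01 on any day 3 array and at 15.01, 15.04 and 15.01 at day 2, close to the highest value in the table, 15.07. The summed level of 18 hepatocyte markers was 16.98 to 17.01 at day 3 and 16.96 to 16.97 at day 2. The brightest members weigh most in that sum. By the limma test 1 of the 18 was called higher at day 3 (Pck1) and 2 lower (Apoa2 and Slc10a1), where 3.45% and 3.81% of all genes were.

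About as many genes rose as fell in the middle step. Map2, Anxa1 and Cd24 had the largest rises, and Rup2, Fabp1 and Gsta3 the largest falls, among genes whose arrays did not overlap. At the gene level 491 were called higher at day 3 (3.45% of all) and 541 lower (3.81%), together 7.26%. The arrays of the days did not overlap for 24.8% of all genes, with day 3 above day 2 for 11.3% and below it for 13.5%. In probe sets the counts were 801 higher (2.58%) and 759 lower (2.45%), together 5.03% of those tested. Large changes ran mostly upward, since 84 probe sets rose at least 2-fold and 26 fell by as much. The step was as wide as the one before it, in which 1556 probe sets (5.01%) were called, and narrower than the change over the 5 days that followed, in which 3885 (12.5%) were called. Among genes these shares were 6.98% and 17.0%. Because the arrays are of bulk RNA, a lower level can come from fewer cells of a kind or from less RNA per cell, and these cannot be told apart.

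Most called probe sets belonged to the group that first moved in this step. It held 1024 of 1560 (65.6%), against 521 that continued (33.4%) and 15 that turned back (0.962%). Among genes the numbers were 670, 351 and 11. The steps share the 3 day 2 arrays, so these counts describe the calls and were not tested. The first group rests largely on a threshold that the earlier step missed. Of its 1024 probe sets, 349 had already differed in the same direction at an unadjusted p under 0.05 between day 1 and day 2. Over the whole group the median change was 0.48 after 0.16 for the 492 probe sets that rose and -0.43 after -0.16 for the 532 that fell. The difference between the 2 steps itself passed the test for 31 probe sets in all (0.0999%), 6 of them in the first-moved group. Continued probe sets had median log2 differences of 0.65 in both steps for rises, and of -0.51 after -0.53 for falls. The group was defined by calls in both steps, so the likeness of these medians is partly set by the rule. Among its members the difference between the steps passed for 5 rises and 0 falls. The counts of calls depend on single arrays: without replicate 3 of day 3 the 1560 calls became 791, without replicate 2 of day 2 they became 811 and without replicate 1 of day 2 they became 1001.

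**Figure D1:**
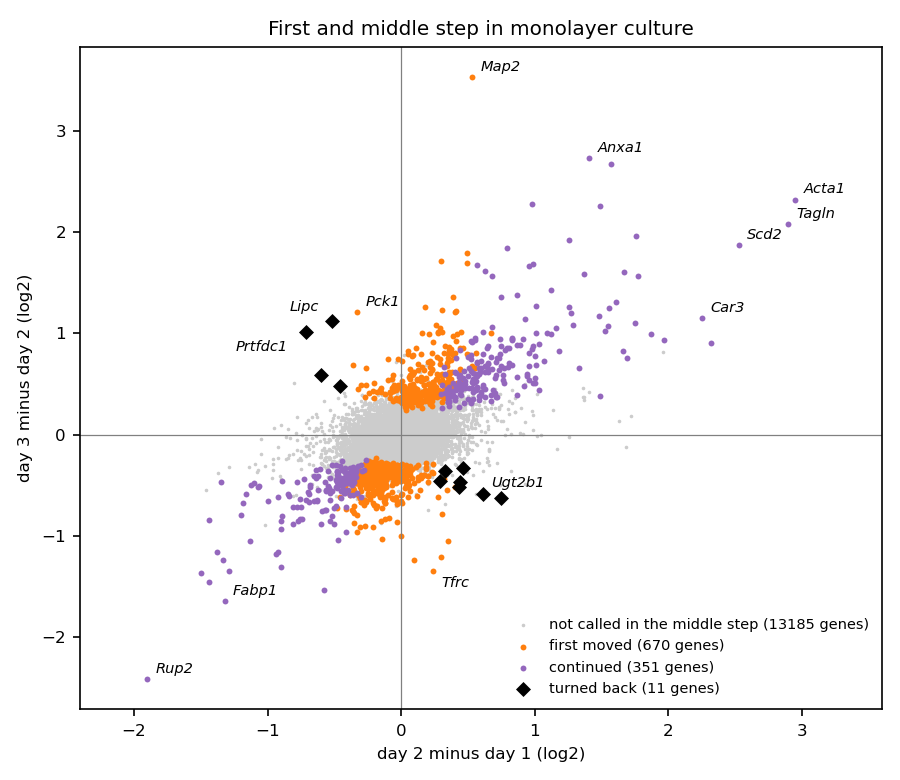
Each point is a gene, placed by its log2 difference between day 2 and day 1 (x axis) and between day 3 and day 2 (y axis) in monolayer culture; colours mark the 670 genes that first moved, the 351 that continued and the 11 that turned back (diamonds), and grey marks genes not called in the middle step. Acta1, Tagln and Scd2 lie far out in both steps, Map2 rose almost entirely in the middle step, and the turned-back genes lie in the upper left and lower right quadrants. The axes share the day 2 arrays.

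The steps differed for 0.176% of all genes. Of genes that first moved, 5 were among them. They were Map2 and Pck1 upward, and Tfrc, Cyp3a23-3a1 and Apon downward. Map2, a microtubule-associated protein best known from neurons, stood at 7.59, 7.08 and 7.29 at day 3 and at 3.68, 4.14 and 3.54 at day 2 on the log2 scale. The arrays of day 3 and day 2 did not overlap, and the day 2 arrays lay near the bottom of the measured range. Its rise of 3.53 ± 0.20 log2 units (SE, adjusted p = 7.23e-11) had the highest value among genes, after a change of 0.53 in the first step (adjusted p = 0.166), and the steps differed by 3.01 (adjusted p = 1.23e-04). It kept climbing to a mean of 10.93 at day 8. A second, dimmer probe set of Map2 changed by 0.27 (adjusted p = 0.399) in the middle step, so the probe sets of Map2 disagree. Pck1 encodes the cytosolic phosphoenolpyruvate carboxykinase that opens gluconeogenesis. It measured 9.49, 9.38 and 10.03 at day 3 and 8.19, 8.33 and 8.75 at day 2, a rise of 1.21 ± 0.16 (2.32-fold, adjusted p = 3.52e-05) after a change of -0.33 (adjusted p = 0.342).

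Tfrc, the transferrin receptor that brings iron into cells, had the largest downward difference between the steps among genes that first moved. Its arrays read 9.13, 8.91 and 9.0 at day 3 and 10.45, 10.51 and 10.1 at day 2, and the days did not overlap. The fall was -1.34 ± 0.11 (2.53-fold lower at day 3, adjusted p = 2.21e-08), whereas the first step had given 0.24 (adjusted p = 0.283), and the steps differed by -1.58 (adjusted p = 1.36e-04). Cyp3a23-3a1, a glucocorticoid-inducible drug-metabolizing cytochrome P450, had 8.7, 8.65 and 8.46 at day 3 and 10.03, 9.93 and 9.58 at day 2. It fell by 1.24 on the log2 scale (adjusted p = 1.15e-05) after 0.10 in the first step, and recovered by 0.54 between days 3 and 8. Apon, apolipoprotein N, was at 5.4, 5.08 and 4.96 at day 3 and at 6.51, 6.48 and 6.09 at day 2, which is -1.21 ± 0.16 (adjusted p = 1.99e-05). Slc10a1, the sodium-dependent bile acid uptake carrier of the sinusoidal membrane, had the same shape: 6.68, 6.37 and 6.74 at day 3 against 7.7, 7.94 and 7.3 at day 2. Its fall of -1.05 ± 0.17 (adjusted p = 3.28e-04) followed a first step of 0.35, and the test of the difference between steps missed the threshold (adjusted p = 0.067).

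Of the 15 genes with the largest rises 11 had already risen in the first step. Acta1 encodes skeletal muscle alpha-actin. It measured 11.85, 11.51 and 11.91 at day 3 against 9.24, 9.41 and 9.65 at day 2. All day 3 arrays stood above all day 2 arrays by nearly 2 log2 units or more, and the mean rose by 2.32 ± 0.30 (4.99-fold, adjusted p = 1.5e-05) after 2.95 in the first step. Tagln, the actin-bundling protein transgelin, measured 11.33, 11.15 and 11.39 at day 3 against 9.02, 9.15 and 9.47 at day 2, a rise of 2.08 ± 0.25 (4.22-fold, adjusted p = 5.9e-06) after 2.90. Between days 3 and 8 neither passed the test (0.02 for Acta1 and -0.39 for Tagln). The smooth muscle actin Acta2 did not pass the test: its arrays read 8.01, 7.81 and 7.56 at day 3 and 7.74, 7.46 and 7.52 at day 2 (0.22 ± 0.26, adjusted p = 0.83), and the days overlapped.

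Several genes rose again between days 3 and 8. Anxa1, a phospholipid-binding annexin with anti-inflammatory roles, had 9.22, 9.16 and 9.43 at day 3 and 6.32, 6.64 and 6.67 at day 2 (2.73 ± 0.16, 6.62-fold, adjusted p = 9.09e-11), then gained another 2.94. Vim, the vimentin filament of mesenchymal cells, measured 8.92, 8.47 and 8.88 at day 3 and 7.0, 6.92 and 6.83 at day 2. Its rise of 1.84 ± 0.15 (3.58-fold) was followed by a larger one of 4.10 between days 3 and 8. Igfbp7, a secreted binding protein of insulin-like growth factors, was at 8.02, 8.09 and 8.27 at day 3 and at 5.91, 5.78 and 5.85 at day 2. Its 2.28 ± 0.14 (4.87-fold, adjusted p = 1.93e-10) exceeded the 0.98 of the first step, and that acceleration passed the test (1.31, adjusted p = 0.0306). Cd24, a surface glycoprotein of progenitor and bile duct cells, rose by 2.67 ± 0.21 to 8.37, 8.12 and 8.29 at day 3, against 5.75, 5.99 and 5.03 at day 2. Among the remaining 15 largest rises were Rgs2, a brake on G protein signalling (1.92, 3.77-fold), Npy, a neuropeptide (1.96, 3.89-fold, with 0.37 to day 8 at an adjusted p of 0.194), Plscr2, a phospholipid scramblase (2.26), and Timp2, an inhibitor of matrix metalloproteinases (1.69, 3.22-fold). A dimmer probe set of Timp2 gave 0.27 (adjusted p = 0.367), so its probe sets disagree on the call. Cpe, a prohormone-processing carboxypeptidase (1.79), and Wls, which escorts Wnt proteins out of the cell (1.70), had not been called in the first step.

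Scd2, a stearoyl-CoA desaturase, stood apart from the other large rises in what it did later. It had 10.34, 10.08 and 10.15 at day 3 and 8.5, 8.6 and 7.85 at day 2 (1.87 ± 0.24, 3.66-fold, adjusted p = 1.77e-05). Replicate 3 of day 2 was the low one, and the days did not overlap. After 2.53 in the first step it lost 1.36 log2 units between days 3 and 8. Dimmer Scd2 probe sets gave 1.38 after 0.90 and 0.47 after 0.03, both called in the middle step, and 0.01 after 0.17 (adjusted p = 0.984 in the middle step). The size of its rise in each step therefore depends on the probe set. Car3, a carbonic anhydrase typical of male rat liver and muscle, also climbed in both steps, by 2.25 and then 1.15 ± 0.17 (adjusted p = 8.01e-05), reaching 11.18, 10.85 and 11.25 at day 3 against 9.92, 9.8 and 10.13 at day 2. A dimmer probe set of Car3 gave 1.11 and then 1.29, both called.

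**Figure D2:**
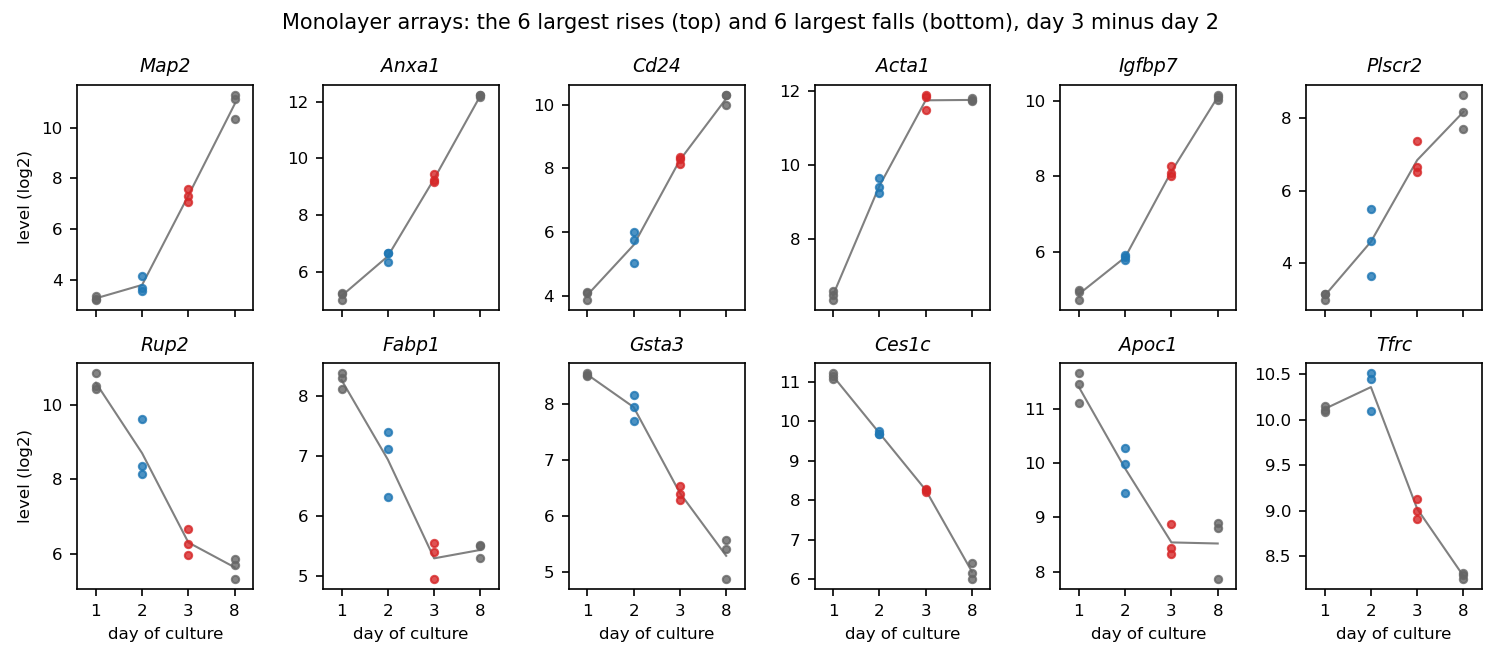
Log2 level of every monolayer array (dots; red day 3, blue day 2, grey other days) with the mean line over days 1, 2, 3 and 8, for the 6 largest rises (top) and the 6 largest falls (bottom) of the middle step. Acta1 has the same mean level at days 3 and 8 to within 0.02, whereas Anxa1, Cd24 and Igfbp7 are higher at day 8. Tfrc is high at days 1 and 2 and lower afterwards.

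Of the 15 genes with the largest falls 11 had already fallen in the first step. Rup2, a urinary protein of the lipocalin family made in liver, dropped furthest, to 6.67, 5.95 and 6.27 at day 3 against 9.62, 8.35 and 8.16 at day 2 (-2.41 ± 0.28, 5.33-fold lower, adjusted p = 4.44e-06). The day 2 arrays were spread over more than a log2 unit, yet all lay above day 3. Other Rup2 probe sets gave -3.7 and -3.52, both called, and the dimmest gave -0.38 (adjusted p = 0.4), so the size of the fall depends on the probe set. Close relatives of this gene may share its probes. Ces1c, a secreted carboxylesterase, was the most even of the falls: 8.29, 8.22 and 8.27 at day 3 and 9.68, 9.76 and 9.67 at day 2 (-1.44 ± 0.11, 2.72-fold lower), with -1.44 also in the first step. Fabp1, the liver fatty acid-binding protein, read 5.55, 5.4 and 4.96 at day 3 and 7.39, 7.11 and 6.32 at day 2. It fell by 1.64, and its change of 0.14 between days 3 and 8 missed the threshold (adjusted p = 0.776). Gsta3, a glutathione transferase, fell by 1.53 (2.88-fold lower); members of the glutathione transferase, Ugt2b and cytochrome P450 families are alike enough that their probes may pick up relatives. Further falls were of Apoc1 (-1.36) and Apoa2 (-1.34), apolipoproteins of circulating lipid particles, and of Serpina6, the corticosteroid-binding globulin (-1.30). Ptgr1 (-1.16) and Akr7a3 (-1.16), reductases of reactive carbonyls, fell too, as did Entpd5, a nucleotidase of the endoplasmic reticulum (-1.18), and Cxcl9, an interferon-induced chemokine (-1.24). Other Entpd5 probe sets gave -0.53 and -0.61, both called, so the size of its fall depends on the probe set. None of the 30 genes with the largest changes lost its call when any single array was left out.

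Genes that turned back were few, 11 of 1032, and fell into those that had dipped and those that had peaked at day 2. Lipc, the hepatic lipase that acts on circulating lipoproteins, read 10.02, 9.9 and 10.19 at day 3 and 8.89, 9.11 and 8.76 at day 2, a rise of 1.12 ± 0.14 (adjusted p = 8.95e-06) after a fall of -0.52. It overshot its day 1 mean by 0.6 (adjusted p = 0.00223) and gained another 0.98 to day 8. Prtfdc1, a relative of the purine salvage enzyme HPRT, behaved alike, with 8.21, 8.15 and 8.34 at day 3 and 7.08, 7.37 and 7.23 at day 2 (1.01 ± 0.10 after -0.71). These were the only turned-back genes whose day 3 level differed from day 1 by the test, which 26.1% of all genes passed. Adm, the vasodilator peptide adrenomedullin (0.59 after -0.60, named after its values were seen because its arrays overlapped), and Itih4, a plasma inter-alpha-trypsin inhibitor heavy chain (0.48 after -0.46), had day 3 means that differed from day 1 by -0.01 and 0.02.

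On the peaking side stood Ugt2b1, a steroid- and drug-glucuronidating enzyme, with 7.28, 7.46 and 7.25 at day 3 and 7.98, 7.97 and 7.78 at day 2 (-0.58 ± 0.12 after 0.61). Scamp5, a vesicle membrane protein (-0.52 after 0.43), and Abhd2, a lipid hydrolase (-0.46 after 0.29), did the same and kept falling to day 8. Csad (-0.62 after 0.75) and Cth (-0.47 after 0.44) both work on sulfur amino acids, Csad toward taurine and Cth toward cysteine, and the kininogen Kng2l1 and the splicing regulator Hnrnph1 changed by -0.36 and -0.33. Dimmer probe sets of Kng2l1 gave -0.14 and -0.05, and neither was called (adjusted p = 0.897 and 0.966). The difference between the steps passed for Lipc, Prtfdc1, Ugt2b1, Scamp5 and Abhd2, and these kept their middle-step call whichever day 2 or day 3 array was left out. The other calls were near the threshold, and each was lost when any 1 of several arrays was left out. Adm lost its call without replicate 1 or 2 of day 2 or replicate 3 of day 3 (adjusted p 0.077 to 0.206), and Cth without the same arrays (0.0992 to 0.111). Itih4 lost it without replicate 2 or 3 of either day (0.0635 to 0.0802) and Csad without replicate 2 or 3 of day 2 or 1 or 3 of day 3 (0.0695 to 0.171). Hnrnph1 lost it without replicate 1 or 2 of day 2 or 2 or 3 of day 3 (0.114 to 0.198), and Kng2l1 without any of the 6 but replicate 3 of day 3 (0.0613 to 0.113).

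**Figure D3:**
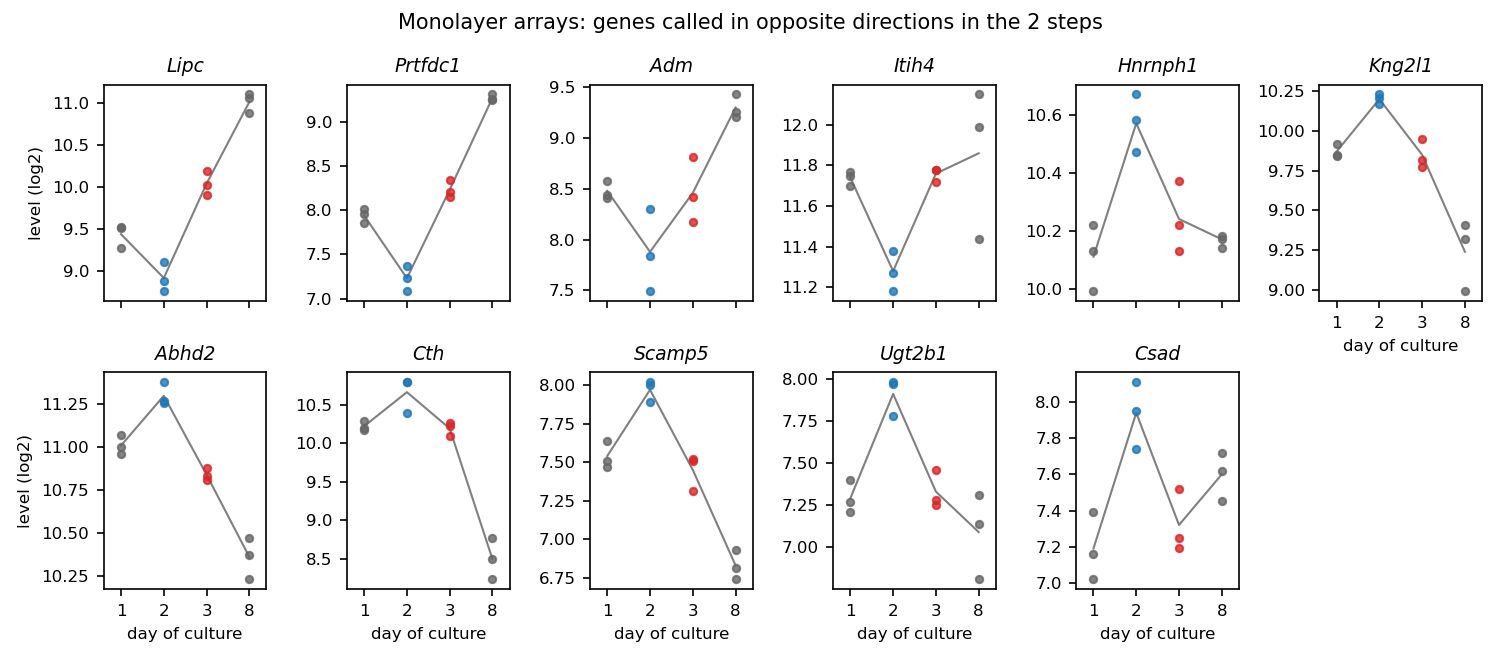
Log2 level of every monolayer array (dots; red day 3, blue day 2, grey other days) with the mean line over days 1, 2, 3 and 8 for the 11 genes called in opposite directions in the 2 steps. Lipc, Prtfdc1, Adm and Itih4 dip at day 2; the other 7 peak there. Vertical scales differ between panels.

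Another set of genes was called in the first step and not in the middle one. Of 992 genes called between day 1 and day 2, 630 were not called in the middle step, and for 11 of these the steps themselves differed. For the others the missing call rests on a missed threshold and does not show that they stopped. These 11 were named after their values were seen. Several are enzymes and products of mature liver that had risen early: Sult1a1, a phenol sulfotransferase, gave 0.14 after 1.63, Sult1b1 gave -0.02 after 1.26, and Apoa1, the main protein of high-density lipoprotein, gave 0.24 after 1.14. Uox, the urate oxidase, gave 0.00 after 1.05, Hsd17b13, a lipid droplet enzyme, -0.14 after 1.17, and Arg1, the arginase that closes the urea cycle, -0.30 after 0.66. Tsx gave 0.19 after 1.72, and Ccl20, a chemokine, -0.12 after 1.68 (difference between steps -1.8 ± 0.25, adjusted p = 0.00109). In the other direction the endoplasmic reticulum chaperone Hsp90b1 and its partner Sdf2l1 had fallen by -0.74 and -0.69 and then gave 0.00 and 0.07, and the interferon-induced Rtp4 gave 0.10 after -0.90.

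Among the process lists the actin cytoskeleton had the largest share of members called higher. Of 36 measured genes of the actin cytoskeleton and contractility, 17 rose and 0 fell (median difference 0.37, against about 0 over all genes), where 3.45% and 3.81% of all genes did so. Besides Acta1 and Tagln they included Ezr, which ties actin to the membrane (9.23, 9.13 and 9.18 at day 3 against 8.39, 8.33 and 8.31 at day 2), and Flna, the filamin crosslinker (0.88). Without replicate 1 of day 3 the count was 11. In the first step 9 members had risen and 0 had fallen, where 3.56% of all genes rose and 3.42% fell. Integrins and their partners gave 4 rises and 0 falls of 22, but 0 rises without replicate 3 of day 3 and 2 without replicate 1 or 2 of day 2 or replicate 1 of day 3. Collagens and other matrix proteins gave 6 and 0 of 30, with 3 rises left without replicate 2 of day 2 or replicate 3 of day 3, and matrix proteases with their inhibitors 5 and 0 of 26. Lox, the collagen-crosslinking lysyl oxidase, rose to 6.39, 6.13 and 6.66 at day 3 against 5.32, 4.93 and 5.26 at day 2 (1.22 ± 0.16), the laminin chain Lamb1 rose by 0.86, and Timp1 and Mmp11 by 0.96 and 0.87.

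Genes tied to a mesenchymal state gave 5 rises and 0 falls of 21. They were Anxa1, Vim and Sox4 together with Marcksl1, an actin-regulating protein (1.57), and Cav1, the coat protein of caveolae (1.61). Annexins and S100 proteins gave 5 and 0 of 19, among them S100a6 (0.76 after 1.69, a slowing that passed the test of the steps, adjusted p = 0.0257) and S100a11 (0.51). Of 19 targets of the mechanosensitive coactivator YAP, 3 rose and 0 fell. Ankrd1, a muscle ankyrin repeat protein, measured 8.68, 8.36 and 8.79 at day 3 against 7.13, 7.41 and 7.37 at day 2, and Ccn2, the connective tissue growth factor, 12.81, 12.56 and 12.83 against 11.83, 11.77 and 12.12 (0.83 after 1.66). Junction and polarity genes gave 2 rises and 1 fall of 25, and 0 of either without replicate 3 of day 3.

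Calls among cell cycle genes were in mitosis and hardly in DNA replication. Of 37 mitotic genes 8 rose and 1 fell (median 0.23), and 8 had risen in the first step as well, but 16 of the 37 lay below the median of all probe sets at both days, where background is unknown. The rises were 4 without replicate 2 or 3 of day 3 and 5 without replicate 1 of day 2. Stmn1, a microtubule destabilizer, stood at 9.27, 9.28 and 9.12 at day 3 against 8.47, 8.71 and 8.3 at day 2 (0.73 ± 0.11), and Ube2c, a mitotic ubiquitin-conjugating enzyme, rose by 0.61. Of 33 replication genes 0 rose and 0 fell by the test; Mcm6, a subunit of the replicative helicase, read 6.67, 6.57 and 6.66 at day 3 and 6.6, 6.64 and 6.21 at day 2. Among 19 cyclins, kinases and inhibitors of the G1 phase 2 rose, among them Ccnd2 (1.01 ± 0.20), and 1 rose without replicate 2 of day 2 or replicate 1 of day 3. Ccnd1, cyclin D1, had gained 1.36 in the first step and gave 0.37 in the middle one (adjusted p = 0.251) with its brightest probe set, and 0.59 (adjusted p = 3.94e-04) with another, so the probe sets disagree on the call.

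Signalling and inflammatory genes were split. Chemokine and inflammation genes gave 5 rises and 5 falls of 33, and 3 rises and 2 to 5 falls without any 1 array. The neutrophil attractant Cxcl3 was at 11.02, 11.18 and 11.13 at day 3 and at 10.26, 10.15 and 10.09 at day 2 (0.94 ± 0.14 after 1.97), the monocyte attractant Ccl2 rose by 0.95 ± 0.17, and Cxcl9 fell. Interferon-induced genes, of which 11 of 27 had fallen in the first step, gave 1 rise (Gbp2, 0.86) and 0 falls in the middle one. Immediate early genes gave 1 and 0 of 27, the rise being lost without any 1 array but replicate 2 of day 2, with Fos at 6.46, 6.75 and 6.58 at day 3 against 6.42, 6.57 and 6.84 at day 2. Acute phase proteins gave 1 and 2 of 23, and 0 to 1 rises and 1 to 2 falls without 1 array, including the endotoxin co-receptor Cd14 (-0.66 ± 0.08).

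Fatty acid oxidation and oxidative stress had the largest shares of members called lower among the process lists. Of 30 genes of fatty acid oxidation 0 rose and 10 fell (median -0.22), with 5 falls left when replicate 2 of day 2 or replicate 1 of day 3 was left out. Angptl4, a lipase inhibitor induced by fasting, read 7.11, 7.1 and 7.23 at day 3 and 7.92, 7.93 and 7.85 at day 2 (-0.75 ± 0.10), and the fatty acid hydroxylases Cyp4a3 and Cyp4a1 changed by -0.59 and -0.72. Angptl4 then rose by 2.02 to day 8. Of 27 oxidative stress genes 9 fell and 1 rose, after 10 falls in the first step. Gclc, which makes the glutathione precursor, measured 7.69, 7.77 and 7.94 at day 3 against 8.46, 8.43 and 8.46 at day 2, and the aldose reductase relative Akr1b8 fell by 0.93. Gpx3, the plasma glutathione peroxidase, was the rise (0.90 ± 0.18). This count moved to 4 without replicate 1 of day 2 and to 5 without replicate 2 of day 2 or any of the 3 day 3 arrays.

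Hepatic transporters gave 7 falls and 1 rise of 31 (median -0.25), with 0 rises without replicate 2 of day 2 or replicate 3 of day 3. Beside Slc10a1 they included the urate and phosphate carriers Slc17a1 (8.13, 8.1 and 7.96 at day 3 against 9.04, 9.23 and 9.03 at day 2) and Slc17a3 (-0.83), and the water channel Aqp8 (-0.52). Cytochrome P450 and other phase I enzymes gave 7 falls and 3 rises of 42 (1 to 3 rises without 1 array), with Cyp1a2 (-0.79) and Aox1, an aldehyde oxidase (-1.05), among the falls. Phase II conjugating enzymes gave 6 and 0 of 37, among them Gstm5 (-0.44), and 3 falls without replicate 3 of day 3. Apolipoproteins and their partners gave 4 falls and 1 rise of 19, where the rise was Lipc. Coagulation and complement gave 5 falls and 1 rise of 30 (3 falls without replicate 1 of day 2), with Hrg, the histidine-rich glycoprotein (-0.70), and C8g and C9 of the terminal complement complex (-0.64 and -0.71).

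Calls among urea cycle and amino acid catabolism genes were mostly upward in the first step and mostly downward in the middle one, but largely in different genes. In the first step 17 of 47 members had risen and 4 had fallen, and in the middle step 1 rose and 9 fell (median -0.09). Among the members that fell, only Csad and Cth had been called higher in the first step. Without replicate 2 of day 2 the falls were 4. Gpt, alanine aminotransferase, stood at 6.7, 6.35 and 6.65 at day 3 against 7.41, 7.64 and 7.53 at day 2 (-0.96 ± 0.11), Asl, argininosuccinate lyase, changed by -0.56, and Haao and Hal, enzymes of tryptophan and histidine breakdown, by -0.60 and -0.54. Cps1, the entry enzyme of the cycle, was level, with 11.5, 11.44 and 11.54 at day 3 and 11.52, 11.44 and 11.47 at day 2, after a gain of 0.89 in the first step.

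Each of the remaining process lists gave at most 3 calls in each direction. Glucose output, fructose and glycogen genes gave 3 falls of 17 (2 to 5 without 1 array), including the glycogen enzymes Ugp2 (-0.51) and Gbe1 (-0.45), and Pck1 as the single rise. Glycolytic genes of non-liver type gave 2 rises and 1 fall of 20 (1 to 2 and 0 to 1 without 1 array), with Ldhb, a lactate dehydrogenase subunit, up by 0.99. Falls without a rise were found in cholesterol synthesis (3 of 21, among them Hsd17b7, -0.61), fatty acid synthesis (3 of 26, with G0s2, a lipase inhibitor, at -0.88), bile acid synthesis (2 of 16) and plasma carriers (2 of 23, Serpina6 and Serpina7). The same held for endoplasmic reticulum stress (3 of 29, with Hspa5 at -0.55 and Dnajc3 at -0.71, after 11 falls in the first step), the amino acid response (2 of 30, with Slc3a2 at -0.50). Single arrays decide several of these small counts: without 1 array the falls were 0 to 2 for bile acid synthesis and 1 to 2 for the amino acid response. A dimmer probe set of Hsd17b7 gave -0.16 (adjusted p = 0.799). Of 45 oxidative phosphorylation genes 3 fell and 0 rose, and 0 fell without replicate 1 or 2 of day 2 or replicate 3 of day 3. Of 32 proteasome subunits 1 fell, a share below the 3.81% of all genes, and 0 without any 1 of the 6 arrays. Heat shock genes gave 2 and 2 of 15, with the small chaperone Cryab up by 0.99 and the mitochondrial Hspe1 changed by -0.43. Of 26 ribosomal protein genes 0 passed the test.

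**Figure D4:**
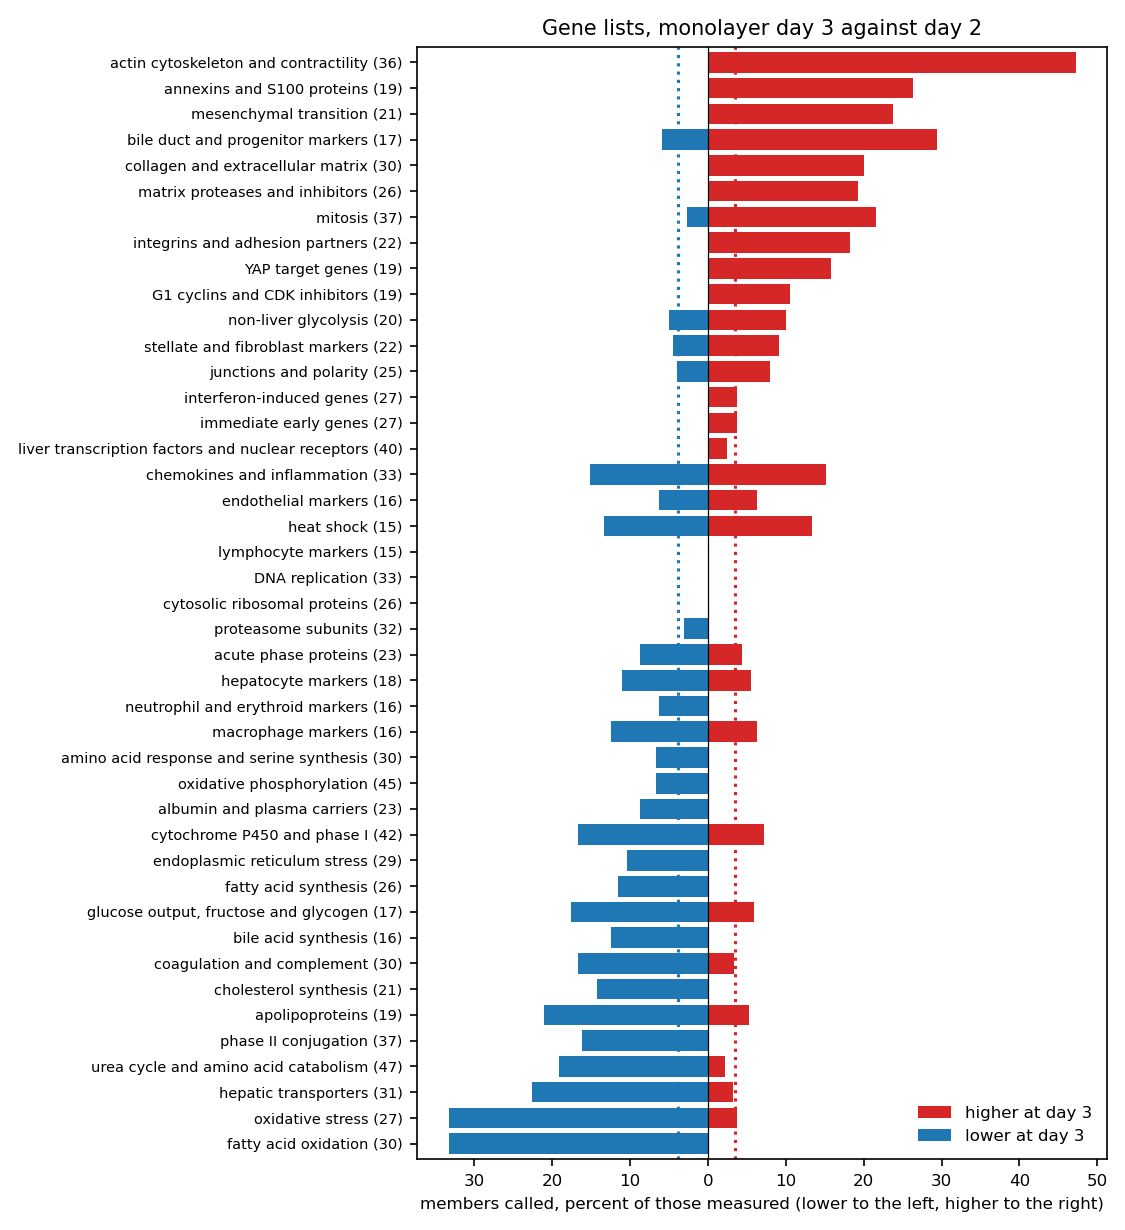
Members called in the middle step as a percent of those measured, for 36 process lists and 7 cell type marker lists (number measured in brackets); red bars to the right are higher at day 3, blue bars to the left lower, and dotted lines mark the share over all genes (3.45% higher, 3.81% lower). Actin genes reach furthest to the right with 17 of 36, and fatty acid oxidation (10 of 30) and oxidative stress (9 of 27) furthest to the left.

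Factors that maintain hepatocyte identity were counted in the same way. Of 40 liver transcription factors and nuclear receptors 1 rose and 0 fell, and 0 rose without replicate 2 of day 2 or replicate 3 of day 3. Over all genes 3.45% rose and 3.81% fell, so counts this small do not set the list apart. Hnf4a, a master regulator of hepatocyte genes, had 10.37, 10.29 and 10.48 at day 3 and 10.53, 10.32 and 10.4 at day 2, and Cebpa had 8.7, 8.12 and 8.01 at day 3 and 8.85, 8.34 and 7.98 at day 2. Both sets of arrays overlapped. Other genes named whatever their values also missed the threshold: Ttr, a thyroid hormone carrier (0.24, adjusted p = 0.0586), Cyp2e1 (-0.35 ± 0.18), Tat (-0.05), Abcb11, the bile salt export pump (-0.30), Afp (-0.27), Egr1 (0.15) and Hspa1a (-0.41, adjusted p = 0.0837). Cyp7a1, the first enzyme of bile acid synthesis, was near the bottom of the scale at both days (4.18 to 4.54 at day 3, 4.39 to 4.62 at day 2).

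Markers of other liver cells were examined beside the structural rises. Of 22 stellate cell and fibroblast markers 2 rose (Nes, 1.00, and Reln, 0.59) and 1 fell (Dpt, -0.83), and their summed level was 10.45 to 10.54 at day 3 and 10.56 to 10.62 at day 2. A dimmer probe set of Reln gave 0.05 (adjusted p = 0.914). Of these 22, 14 lay below the median of all probe sets at both days, Lrat (3.54 at day 3, 3.51 at day 2) and Col1a1 (5.44 and 5.51) among them. Of 17 bile duct and progenitor markers 5 rose and 1 fell, and the summed level was 12.32 to 12.42 at day 3 against 11.65 to 11.74 at day 2. Sox4 was the brightest member and weighs most in that sum. The median difference over the list was 0.11, and 11 members were not called. The rises were those of Cd24, Sox4 (11.22, 11.23 and 11.35 at day 3 against 10.1, 10.04 and 10.05 at day 2), Prom1 (1.05), Tspan8 (1.01) and Onecut2 (0.57, adjusted p = 0.0334), with 4 rises without any 1 array, whereas Epcam changed by -0.65 and the defining keratins Krt19 and Krt7 stayed low at 4.52 and 3.93 at day 3, against 4.30 and 3.82 at day 2. Macrophage markers gave 1 rise (Lyz2, 0.78) and 2 falls (among them Cd68, -0.85; 1 fall without replicate 2 of day 2) of 16, endothelial markers 1 and 1 of 16 (0 to 1 of each without 1 array), lymphocyte markers 0 and 0 of 15, and neutrophil and erythroid markers 1 fall of 16, which was Tfrc. The summed ranges were 10.58 to 10.72 at day 3 and 10.51 to 10.6 at day 2 for macrophages, and 9.65 to 9.76 and 9.59 to 9.73 for endothelial cells. What part such cells had in the results was not tested.

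Promoters of the leading genes were searched for motifs that bind factors of the actin, growth and stress programmes, in windows of 300 bases that lie mostly before the start (RefSeq, build GRCr8). Of the 30 genes with the largest changes 24 had an entry. The 3 shown are the 2 strongest rises and the strongest fall that first moved among those with a match. Capitals mark the motif letters: the serum response factor site (CArG box) and the TEAD site, GGAATG or its reverse complement.

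Anxa1, chr1:227303683-227303982, minus strand: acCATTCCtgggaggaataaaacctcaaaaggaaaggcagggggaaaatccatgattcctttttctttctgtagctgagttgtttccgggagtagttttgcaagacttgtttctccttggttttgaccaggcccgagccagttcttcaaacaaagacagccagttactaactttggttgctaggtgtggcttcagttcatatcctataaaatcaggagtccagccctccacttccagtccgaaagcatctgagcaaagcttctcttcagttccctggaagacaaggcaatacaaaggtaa
Acta1, chr19:68784145-68784444, minus strand: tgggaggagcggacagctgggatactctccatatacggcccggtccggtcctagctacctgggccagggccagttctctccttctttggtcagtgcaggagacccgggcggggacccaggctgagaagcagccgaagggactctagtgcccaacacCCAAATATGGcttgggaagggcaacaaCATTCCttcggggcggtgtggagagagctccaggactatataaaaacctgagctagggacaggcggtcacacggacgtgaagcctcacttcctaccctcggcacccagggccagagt
Apon, chr7:1272868-1273167, minus strand: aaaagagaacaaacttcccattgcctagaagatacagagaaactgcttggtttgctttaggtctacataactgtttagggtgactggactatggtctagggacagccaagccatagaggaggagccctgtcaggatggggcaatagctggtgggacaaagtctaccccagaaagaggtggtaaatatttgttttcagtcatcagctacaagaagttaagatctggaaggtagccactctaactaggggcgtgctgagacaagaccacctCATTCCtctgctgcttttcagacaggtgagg

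Acta1 holds a CArG box whose first base is at -94 and a TEAD match at -67. Anxa1 has a TEAD match at -248, at the edge of the window, and Apon has one at 20, downstream of the start. Such matches are common. On either strand TEAD letters were in 11.5% of 454 promoters of genes called higher, in 9.88% of 496 called lower and in 11.9% of all 13242. The CArG box was in 1.98%, 0.806% and 1.45%, and the AP-1 letters TGANTCA in 6.61%, 6.85% and 5.6%. The E2F letters TTTCCCGC, TTTCGCGC, TTTGCCGC and TTTGGCGC were in 3.3%, 3.63% and 3.51%. The sterol element TCACNCCAC was in 0.441%, 0.605% and 1.07%. The endoplasmic reticulum stress element was in 0, 2 and 18 promoters. A match is a stretch of letters and was not tied to binding or to the changes.

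Fewer probe sets were called over the same days in the sandwich culture. There 884 probe sets were called between day 3 and day 2 (2.85%; 533 higher, 351 lower), and 3.88% of genes, with 2.4% higher and 1.48% lower. Of genes that rose in the monolayer, 60 also rose in the sandwich, which is 12.2% of the monolayer's and 17.6% of the sandwich's. Of those that fell, 89 fell in both, 16.5% and 42.2%. The 2 sets of calls share no arrays. The difference between the steps, monolayer minus sandwich, passed the test for 386 probe sets (1.24%) and 268 genes (1.89%), the monolayer step being the higher for 108 (0.76%) and the lower for 160 (1.13%). Without replicate 2 of sandwich day 2 the 386 became 257.

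Several of the largest rises differed between the cultures by that test. Map2 changed by 3.53 in monolayer and by 0.12 in sandwich culture (difference 3.41, adjusted p = 5.01e-07), Anxa1 by 2.73 and 0.21 (2.51, adjusted p = 7.68e-07), and Acta1 by 2.32 and 0.28 (2.04, adjusted p = 0.00952). Among actin genes 7 of 36 had a higher step in monolayer and 0 a lower one, where 0.76% and 1.13% of all genes did. In the sandwich itself 1 actin gene rose and 4 fell, where 2.4% and 1.48% of all genes did. Scd2 was an exception, with 1.87 in monolayer and 1.75 in sandwich (difference 0.13, adjusted p = 0.986). Several falls ran alongside in both cultures: Ces1c changed by -1.44 and -1.59, Tfrc by -1.34 and -1.20, Entpd5 by -1.18 and -1.07, Cxcl9 by -1.24 and -0.96, and Rup2 by -2.41 and -1.65. For these the differences between the cultures missed the threshold.

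Genes of liver functions differed between the cultures as well. Of the 47 urea cycle and amino acid genes 21 rose and 0 fell in the sandwich over the same days, against 1 and 9 in the monolayer, and the difference passed for 20, all with the monolayer lower. Over all genes 2.4% rose and 1.48% fell in the sandwich. The monolayer step was the lower for 1.13% of all genes and the higher for 0.76%. Coagulation and complement (8 of 30), apolipoproteins (6 of 19), glucose output (6 of 17) and transporters (6 of 31) also held genes whose monolayer step was the lower, with 1 apolipoprotein-list gene, Lipc, the other way. Ugt2b1 moved oppositely, by -0.58 in monolayer and 0.87 in sandwich (both called, difference -1.44, adjusted p = 5.71e-05), and so did Car3, by 1.15 and -0.74 (difference 1.89, adjusted p = 7.69e-05). Apoa2, Slc10a1 and Cyp3a23-3a1 fell in monolayer, while their sandwich changes were 0.43, 0.40 and 0.43 and missed the threshold (differences -1.77, -1.45 and -1.67). Clec14a (0.10 and 2.08) and Rbp7, a retinol-binding protein (-0.36 and 1.59), differed because of the sandwich step.

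**Figure D5:**
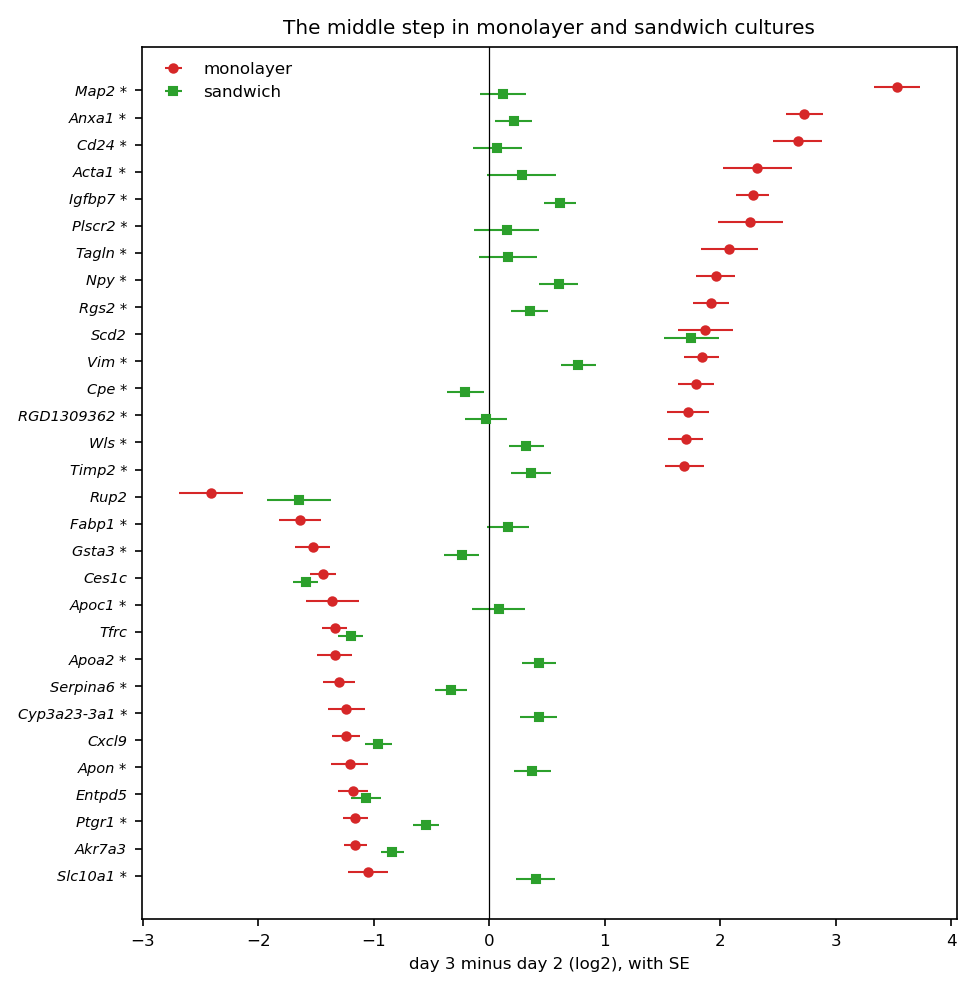
Log2 difference between day 3 and day 2 with its SE for the 15 largest rises and 15 largest falls of the monolayer step, in monolayer (red circles, drawn above) and sandwich culture (green squares); an asterisk marks a difference between the cultures with an adjusted p under 0.05. Scd2, Rup2, Ces1c, Tfrc, Cxcl9, Entpd5 and Akr7a3 carry none.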

How the data were processed

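The authors deposited a table of log2 probe set values from Affymetrix arrays hybridised with biotin-labelled cRNA; per the submitters' processing notes the tools were RMA, which corrects, normalizes and summarizes probes, and limma, with no version or role given. RMA on the log2 scale compresses differences of dim probe sets. Of 31099 probe sets 57 controls were left out and 31042 tested; by the platform annotation 20826 carried 1 gene symbol, 436 several and 9780 none. For each gene the brightest probe set on average over the 24 arrays was used (14217 genes, 4525 with several). Column names matched the sample titles. Values ran from 2.61 to 15.07 and array medians from 5.57 to 5.67. No detection calls were used, so a fold is given only where the lower mean reaches 5.62, the median of all. The number of arrays limits the precision.

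The analysis used limma 3.58.1 in R 4.3.3 with 8 group means fitted to all 24 arrays, so that the groups shared the estimate of spread, and Benjamini-Hochberg adjustment within each comparison at 0.05. Errors are the model's SE. The steps were day 3 minus day 2, day 2 minus day 1, their difference, day 8 minus day 3, day 3 minus day 1, and monolayer minus sandwich. First moved means called in the middle step and not between day 1 and day 2, whatever the late step gave. Continued means also called in that earlier step in the same direction, and turned back called there in the opposite one. In simulated data with these arrays' spread, a small part of the 31042 probe sets was changed, and noise was drawn independently for each array. Of these changes, 57% of those of 0.5 and 100% of those of 1 log2 unit were recovered, with 8 false calls among the unchanged probe sets. Many more probe sets were called in the real step, so these shares need not hold for it. Summed levels are log2 of the sum over members of linear values. Same-numbered arrays of days 3 and 2 deviated together with correlations of 0.428, -0.198 and 0.318, so the numbers were not used as pairs.

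Named are the 15 largest rises and falls whose arrays did not overlap, the 8 largest rises and falls of each pattern, the 4 smallest adjusted p of each of 36 process and 7 marker lists (counts of all are in the report), the 6 largest culture differences each way and 26 chosen genes; genes whose call single arrays decide are given sparingly. Members and lists were chosen with earlier results of these data known. Alternatives were quantile and median scaling, the interquartile range as covariate, array weights, fewer arrays in the fit, a filter on dim probe sets, an intensity trend, a replicate block, other probe set rules and leaving out each array.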

Additional observations from a re-analysis of the deposited data

Results flagged for a closer look

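The change from day 2 to day 3 differed between monolayer and sandwich culture by the direct test (limma, adjusted p under 0.05 over 31042 probe sets, 3 arrays in each of the 4 groups) for 67 of the genes named or singled out. The rules named 204 genes, and a few others were singled out after their values were seen. Over all 14217 genes 268 passed (1.89%). Many of the named genes were chosen for a large monolayer step or for this same difference. The 67 therefore do not measure how common such differences are. Values are log2, monolayer step minus sandwich step. The largest differences with the monolayer step higher were Map2 3.41, Cd24 2.59, Anxa1 2.51, Plscr2 2.11, Acta1 2.04, Cpe 2.00 and Tagln 1.92. It was also higher for RGD1309362 1.75, Igfbp7 1.67, Cav1 1.59, Rgs2 1.56, Marcksl1 1.5, Wls 1.38, Npy 1.36 and Timp2 1.32. Smaller differences in the same direction were Lox 1.26, Ankrd1 1.25, Vim 1.07, Stmn1 1.03, Ezr 0.94, Nes 0.86, Flna 0.80, Ube2c 0.64, Timp1 0.60 and S100a11 0.47. Further genes with the higher step in monolayer were Car3 1.89, Prtfdc1 1.33, Lipc 1.29, Sox4 1.20, Tspan8 1.07, Ccl2 1.02, Cxcl3 1.01, Prom1 0.98, Adm 0.92 and Cxcl6 0.75. The monolayer step was the lower for Fabp1 -1.79, Apoa2 -1.77, Apon -1.58, Slc10a1 -1.45, Cyp3a23-3a1 -1.67, Ugt2b1 -1.44, Apoc1 -1.43 and Gsta3 -1.29. Also lower were Hrg -1.31, Csad -1.09, Slc27a5 -0.98, Serpina6 -0.97, Plg -0.95, G0s2 -0.92, Cyp4a1 -0.79, Aqp8 -0.78, Haao -0.73, C8g -0.71, Arg1 -0.71, Gpt -0.70 and Fgf21 -0.69. Smaller differences were Insig2 -0.68, Slc17a1 -0.66, Tkfc -0.64, Ptgr1 -0.62, Kng2l1 -0.55 and Asl -0.53. It was lower, too, for Clec14a -1.99, Rbp7 -1.95, Dpt -0.97, Ccl20 -0.85 and Cd68 -0.75. No explanation was tested for these differences.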

How the results depend on the processing

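The direction of the 141 named genes called in the step held under every setting tried but 1 (Stard4 gave 0.06, adjusted p = 0.706, as a median over its probe sets, against -0.42), and 1941 of 2134 recomputed values kept both direction and call. The other values came from 52 of the 141 genes, which lost the call or changed direction under at least 1 setting. Counts moved more, and the cause was not tested. Against 1560 calls (801 higher, 759 lower) the interquartile range as a covariate gave 2362 (1202, 1160), array weights 3378 (1640, 1738), the 6 arrays alone 818 (500, 318) and a 2-fold minimum 110 (84, 26). Leaving out 1 array gave 791 to 1556 calls, 435 to 686 higher and 265 to 901 lower. First-moved probe sets were 492 higher and 532 lower, 740 and 838 with the covariate, 1057 and 1081 with weights, and 211 to 534 and 142 to 766 without 1 array. Continued ones were 303 and 218, with weights 525 and 597, and without 1 array 198 to 285 and 117 to 185. Turned-back ones were 6 and 9, with the covariate 13 and 22, with weights 58 and 60, and without 1 array 2 to 6 and 2 to 9. The turned-back rises were 12 among probe sets above the median, and the falls 4 with median-centred arrays. With the earlier step read at unadjusted p under 0.05, first moved, continued and turned back held 303 and 346, 480 and 390, 18 and 23 (higher and lower), and with both steps at 0.01 they held 245 and 235, 168 and 92, 1 and 2.

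The difference between steps gave 31 calls, 56 with quantile scaling, 20 median-centred, 98 with the covariate, 312 with weights, 48 above the median, 51 with a trend and 10 to 28 without 1 array. The culture difference gave 386, with the covariate 601, with weights 1002, and without 1 array 257 to 436. Without 1 array the list counts were 11 to 16 for actin (17), 5 to 10 for fatty acid oxidation (10), 4 to 10 for urea cycle and amino acid genes (9, and 14 with weights) and 4 to 9 for oxidative stress (9). With the replicate number as a block, which the labels do not say pairs the arrays, 2058 probe sets were called, turned-back falls were 18 and the difference between steps gave 75. Replicate 2 of day 3 correlated best with replicate 3 of day 2 (0.303), not with its own number. Background signal is unknown, so dim probe sets have no lower limit here.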
